A study of Homo sapiens with 12 samples.

Results

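Messenger RNA levels of 33 genes of homologous recombination, the Fanconi pathway and the DNA damage checkpoint were examined in H929 cells, a human multiple myeloma cell line. The 33 genes were taken by name. Of the 33 genes, 28 had a probe set of their own and all 28 were tested, among 15587 genes tested in all. These 28 genes had 64 probe sets assigned to 1 gene alone, of which 56 were tested and 8 were too dim to be. ATRIP was measured only by probe sets shared with TREX1, and BRCA2, RBBP8, FANCA and FANCD2, which had no probe set in the annotation used here, were not analysed here. Cells were treated for 24 hours with the combination of tosedostat (CHR-2797, 1 µM) and CHR-3996 (250 nM), with CHR-3996 alone (250 nM), with tosedostat alone (1 µM), or were left untreated. CHR-3996 blocks histone deacetylases, enzymes that strip acetyl groups from histones. Tosedostat inhibits aminopeptidases, which trim amino acids from the ends of peptides. Each of the 4 groups had 3 arrays, labelled as biological replicates of 1 cell line with nothing further said of how the cultures were kept, so that the spread behind each p-value may be technical. All values are deposited log2 expression values, a difference of 1 is a 2-fold change, and a gene was called when limma gave an adjusted p under 0.05 over all 36395 probe sets tested. A gene with several probe sets was represented by its brightest one unless another is named.

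Homologous recombination repairs a broken chromosome by copying the sister chromatid, and so works mainly in S and G2 phase. The break ends are resected, BRCA1, PALB2 and BRCA2 prepare the single strands for pairing, and the strand exchange factors carry out the search for the matching strand. The Fanconi proteins detect and unhook crosslinks between the DNA strands, and ATM, ATR and the kinases CHEK2 and CHEK1 hold the cell cycle while repair goes on. Many of these genes are known to be transcribed most strongly in cells that are preparing to copy or are copying their DNA.

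After CHR-3996, most of these genes fell. Of the 28 genes, 20 were lower and 2 were higher than in untreated cells, with a median change of -0.80. Over all genes tested, 18.0% were lower and 31.7% were higher, and the median change was 0.11. With the combination 18 of the 28 genes were lower and 2 were higher, with a median of -0.60, against 15.9% of all genes lower, 34.6% higher and an all-gene median of 0.15. With other scalings of the arrays the all-gene shares for the combination were 28.8% lower and 27.2% higher (quantile normalization) or 26.6% lower and 25.6% higher (equal array medians), with an all-gene median of -0.10 under either. Under either scaling 21 of the 28 genes were lower and 1 was higher with the combination. Their median change was -0.83 (quantile normalization) or -0.85 (equal array medians). All 18 genes that fell with the combination also fell after CHR-3996 alone, and the 2 other genes called after CHR-3996, BARD1 and RAD54B, were not called with the combination in the values as deposited. Both were called lower with the combination under either other scaling and with a variance trend. Both comparisons use the same untreated arrays. The difference from untreated cells was at least 2-fold for 8 of the genes that fell with the combination and 12 of those that fell after CHR-3996. The share of all genes that were called lower by at least 2-fold is not given, so these counts have no background beside them. In all 20 genes lower after CHR-3996, every CHR-3996 array lay below every untreated array. The 20 were called on these same arrays, and the share of all called genes without overlap is not given, so this is a description.

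Tosedostat alone gave no call among the 28 genes. Their median change was -0.16, and 3 of them had an unadjusted limma p under 0.05, against 18.6% of all genes, while 4.80% of all genes were called. The 28 genes and all genes are set side by side in the plot of shares called.

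**Figure D1:**
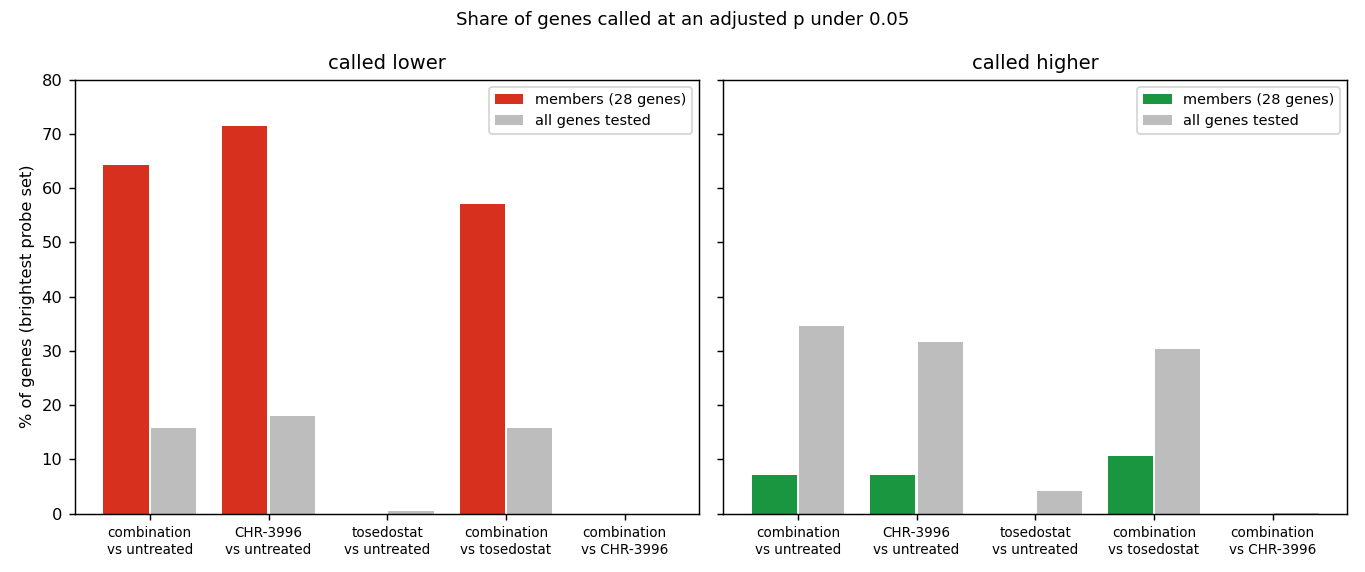
Share of genes called lower (left) and higher (right) at an adjusted p under 0.05 in each comparison, as a percentage of genes represented by their brightest probe set. Coloured bars are the 28 genes of repair and checkpoint and grey bars are all 15587 genes; the share lower after CHR-3996 was 20 of 28 genes against 18.0% of all genes.

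**Figure D2:**
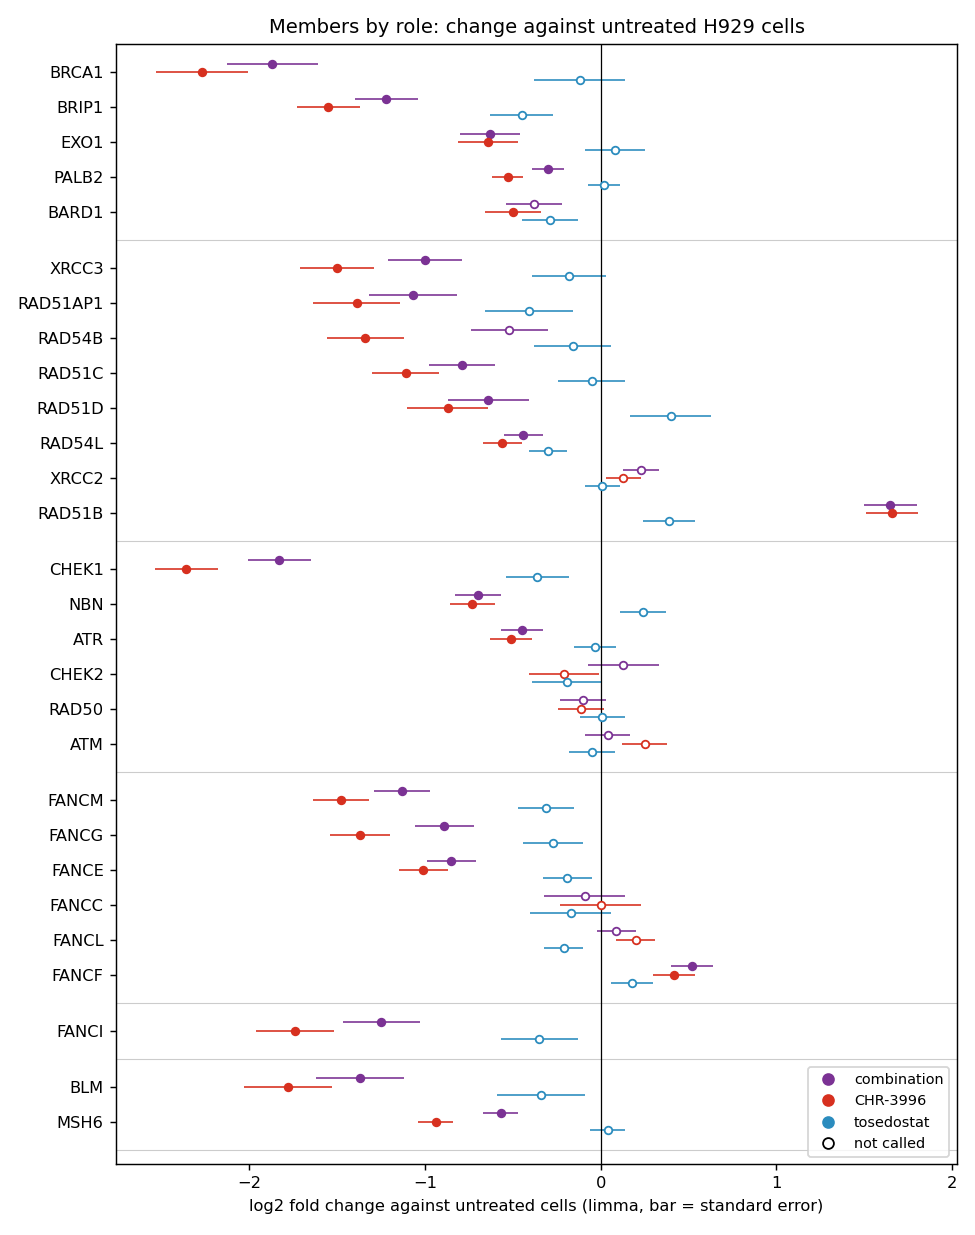
Log2 fold change against untreated cells (horizontal axis) of each of the 28 genes, grouped by role, for the combination (purple), CHR-3996 (red) and tosedostat (blue). Bars are standard errors from limma, filled points were called and open points were not; the 20 genes called lower after CHR-3996 lie between -2.36 for CHEK1 and -0.50 for BARD1.

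Because many of these genes moved together, their promoters were read for letters known to be bound by cell cycle and general promoter factors. RefSeq promoters (GRCh38.p14) covered 25 of the 28 tested genes, all but NBN, FANCI and RAD54B. The search covered 250 bases before to 50 bases after each start, on both strands, and a gene counted if any of its starts had a match. The letters of the E2F site (TTTGGCGC, TTTCCCGC, TTTCGCGC or TTTGCCGC) were found in 4 of the 25 genes (16.0%), against 3.98% of 27058 genes in the table. Among the 25, the match was in 2 of 17 genes that fell after CHR-3996 (EXO1 and MSH6) and in 2 of 8 that did not (XRCC2 and FANCC). The CCAAT box was in 13 of 25 genes (52.0%) against 39.8% of all genes, with 10 of the 17 genes that fell (58.8%) and 3 of the 8 others (37.5%). The cell cycle homology element TTTGAA was in 3 of 25 genes against 18.2% of all genes. In these 25 genes no match of one kind overlapped a match of another kind. The 4 promoters with E2F letters are shown first, and those of CHEK1 and BLM, chosen after their values were seen for their large changes and CCAAT boxes, come last. Each runs 5′ to 3′ along the gene from 180 bases before the start to base 30 after it, with matches to E2F or CCAAT letters in capitals (CCAAT reads ATTGG, and the E2F letters read in reverse complement, where the match is on the other strand).
MSH6 (chr2:47782965-47783174, plus strand): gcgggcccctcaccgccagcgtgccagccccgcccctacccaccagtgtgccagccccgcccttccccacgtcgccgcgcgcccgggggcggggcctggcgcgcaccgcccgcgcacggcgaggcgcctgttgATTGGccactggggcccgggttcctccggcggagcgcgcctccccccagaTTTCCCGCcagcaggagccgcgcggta
EXO1 (chr1:241848024-241848233, plus strand): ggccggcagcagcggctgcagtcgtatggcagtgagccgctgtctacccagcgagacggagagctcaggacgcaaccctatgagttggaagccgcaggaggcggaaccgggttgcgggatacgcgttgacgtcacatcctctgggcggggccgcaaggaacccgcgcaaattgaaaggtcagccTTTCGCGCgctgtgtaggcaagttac
XRCC2 (chr7:152676112-152676321, minus strand): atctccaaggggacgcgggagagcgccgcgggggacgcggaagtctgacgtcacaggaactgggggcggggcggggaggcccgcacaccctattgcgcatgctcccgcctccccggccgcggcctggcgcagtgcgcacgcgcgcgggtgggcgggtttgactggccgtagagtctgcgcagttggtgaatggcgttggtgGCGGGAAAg
FANCC (chr9:95317680-95317889, minus strand): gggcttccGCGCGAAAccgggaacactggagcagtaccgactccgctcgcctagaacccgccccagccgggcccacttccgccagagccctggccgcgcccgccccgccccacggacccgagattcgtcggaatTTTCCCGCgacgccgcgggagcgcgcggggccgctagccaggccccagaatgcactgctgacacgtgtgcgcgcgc
CHEK1 (chr11:125626049-125626258, plus strand): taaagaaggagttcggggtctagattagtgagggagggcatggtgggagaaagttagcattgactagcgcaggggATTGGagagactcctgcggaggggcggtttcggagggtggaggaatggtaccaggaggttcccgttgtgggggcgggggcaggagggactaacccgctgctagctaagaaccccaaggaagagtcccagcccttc
BLM (chr15:90717166-90717375, plus strand): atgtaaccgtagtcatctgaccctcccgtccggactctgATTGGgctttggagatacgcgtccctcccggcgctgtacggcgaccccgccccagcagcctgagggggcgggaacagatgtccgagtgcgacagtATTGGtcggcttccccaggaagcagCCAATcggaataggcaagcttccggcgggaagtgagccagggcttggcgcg
MSH6 and EXO1 fell after CHR-3996, while XRCC2 and FANCC, which hold the same kind of match, were not called. The matches describe letters in these windows and no binding was measured.

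All 5 tested genes of the BRCA complex and end resection fell after CHR-3996, and all but BARD1 fell with the combination. BRCA1, the scaffold that directs broken ends to homologous recombination, changed most. Its values were 7.48, 8.26 and 8.51 with the combination, 7.18, 7.85 and 8.02 after CHR-3996, 9.75, 9.83 and 9.94 after tosedostat, and 9.90, 10.02 and 9.95 in untreated cells. Every array with CHR-3996 in the treatment lay more than 1 unit below every array without it. BRCA1 changed by -1.87 with the combination (SE 0.26, adjusted p = 0.00014) and by -2.27 after CHR-3996 (SE 0.26, adjusted p = 3.5e-05, limma). The second BRCA1 probe set, 211851_x_at, fell by 1.22 with the combination and by 1.39 after CHR-3996. BRIP1, also called FANCJ, is a helicase that binds BRCA1. Its values were 7.38, 7.79 and 8.02 with the combination, 7.14, 7.60 and 7.46 after CHR-3996, 8.58, 8.35 and 8.59 after tosedostat, and 9.15, 8.91 and 8.81 in untreated cells. The arrays with CHR-3996 did not overlap those without it, and the changes against untreated cells were -1.22 (combination, adjusted p = 0.00021) and -1.55 (CHR-3996, adjusted p = 3.8e-05). Its dimmer probe set, 221703_at, was also called lower, but its 2.70, 1.71 and 4.51 on the CHR-3996 arrays were all below the 40th percentile of the array, so no size of the change is given. EXO1, a nuclease of end resection, fell by 0.63 with the combination and 0.64 after CHR-3996. PALB2, which links BRCA1 to BRCA2, fell by 0.30 with the combination and by 0.53 after CHR-3996, and the combination call was lost without combination replicate 3 or untreated replicate 1. BARD1, the partner of BRCA1 in its ubiquitin ligase, fell by 0.50 after CHR-3996 (adjusted p = 0.025) and had a change of -0.38 with the combination (adjusted p = 0.08). With the combination it was called lower after quantile normalization (-0.59, adjusted p = 0.0036) and with equal array medians (-0.62, adjusted p = 0.0065). The BARD1 call after CHR-3996 was lost when CHR-3996 replicate 1 or any 1 of the 3 untreated arrays was left out, with no filter on dim probe sets, and in the compared groups alone. Of its 3 probe sets, 242655_at fell by 0.98 with the combination and by 1.03 after CHR-3996, while 227545_at was called in neither comparison.

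Of the 8 genes of strand exchange (RAD51AP1, RAD51B, RAD51C, RAD51D, XRCC2, XRCC3, RAD54L and RAD54B), 6 fell and 1 was higher after CHR-3996. XRCC3, which acts in a complex with RAD51C, had the largest fall. Its values were 5.73, 6.10 and 5.94 with the combination, 5.40, 4.96 and 5.94 after CHR-3996, 6.84, 6.82 and 6.59 after tosedostat, and 6.83, 7.09 and 6.86 in untreated cells. One array in each CHR-3996 group read 5.94, and both groups stayed below all tosedostat and untreated arrays. XRCC3 changed by -1.0 with the combination (SE 0.21, adjusted p = 0.0026) and by -1.50 after CHR-3996 (SE 0.21, adjusted p = 0.00017). RAD51AP1, which stimulates strand exchange, fell by 1.07 with the combination and by 1.39 after CHR-3996. RAD51D, which acts in a complex with RAD51B, RAD51C and XRCC2, fell by 0.64 with the combination and by 0.87 after CHR-3996. Its combination call (adjusted p = 0.042) was lost without combination replicate 1, without CHR-3996 replicate 3, without tosedostat replicate 2 or 3, and without any 1 of the 3 untreated arrays, while its second probe set was called in both comparisons (-0.72 with the combination and -0.97 after CHR-3996). RAD54L, a motor protein that helps the broken strand invade the second duplex, fell by 0.44 with the combination and by 0.56 after CHR-3996. Its relative RAD54B fell by 1.34 after CHR-3996 (adjusted p = 0.00044), while its change of -0.52 with the combination was not called (adjusted p = 0.076). RAD54B was called lower with the combination after quantile normalization (-0.87, adjusted p = 0.0084), with equal array medians (-0.77, adjusted p = 0.013), with a variance trend, with a stricter filter on dim probe sets, with the replicate number as a block, and without combination replicate 3. XRCC2 was called in neither comparison, with changes of 0.23 with the combination and 0.13 after CHR-3996.

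RAD51C, which sits with XRCC3 in one complex and with RAD51B, RAD51D and XRCC2 in another, gave different readings from its 2 probe sets. Probe set 209849_s_at read 9.10, 9.74 and 9.64 with the combination, 8.84, 9.42 and 9.25 after CHR-3996, 10.21, 10.11 and 10.39 after tosedostat, and 10.29, 10.26 and 10.30 in untreated cells. On this probe set the CHR-3996 arrays were clear of the untreated arrays, with changes of -0.79 (combination, adjusted p = 0.0049) and -1.11 (CHR-3996, adjusted p = 0.00053). Probe set 206066_s_at read 8.69, 9.05 and 9.13 with the combination, 8.40, 8.75 and 8.84 after CHR-3996, 8.71, 8.62 and 8.59 after tosedostat, and 8.87, 8.76 and 8.57 in untreated cells. Here the groups overlapped and the changes were 0.22 with the combination (adjusted p = 0.27) and -0.07 after CHR-3996 (adjusted p = 0.74).

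RAD51B, of the second of these complexes, had probe sets called in opposite directions. Its brightest, 210255_at, read 6.64, 6.74 and 6.98 with the combination, 6.71, 6.84 and 6.86 after CHR-3996, 5.24, 5.62 and 5.73 after tosedostat, and 4.94, 5.21 and 5.27 in untreated cells. This probe set was higher on every array with CHR-3996, by 1.65 with the combination (SE 0.15, adjusted p = 7.2e-06) and by 1.66 after CHR-3996 (SE 0.15, adjusted p = 7.2e-06). Probe set 216880_at read 4.58, 5.16 and 5.38 with the combination, 4.66, 5.02 and 4.96 after CHR-3996, 5.81, 5.78 and 5.86 after tosedostat, and 5.76, 5.68 and 5.57 in untreated cells. It was lower on every array with CHR-3996, with changes of -0.63 with the combination (adjusted p = 0.016) and -0.79 after CHR-3996 alone (adjusted p = 0.0047). The remaining 2 probe sets were called in neither comparison, with arrays that overlapped after CHR-3996. One of them, 1561122_a_at, read 4.84, 4.27 and 5.15 with the combination, 4.55, 4.45 and 3.57 after CHR-3996, 5.26, 3.53 and 4.72 after tosedostat, and 4.75, 4.50 and 5.03 in untreated cells. The other, 1554496_at, read 5.0, 5.45 and 5.28 with the combination, 5.07, 4.70 and 5.25 after CHR-3996, 5.32, 5.14 and 3.31 after tosedostat, and 4.78, 3.62 and 4.90 in untreated cells. When the kept probe sets of a gene were averaged, RAD51B was no longer called after CHR-3996.

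**Figure D3:**
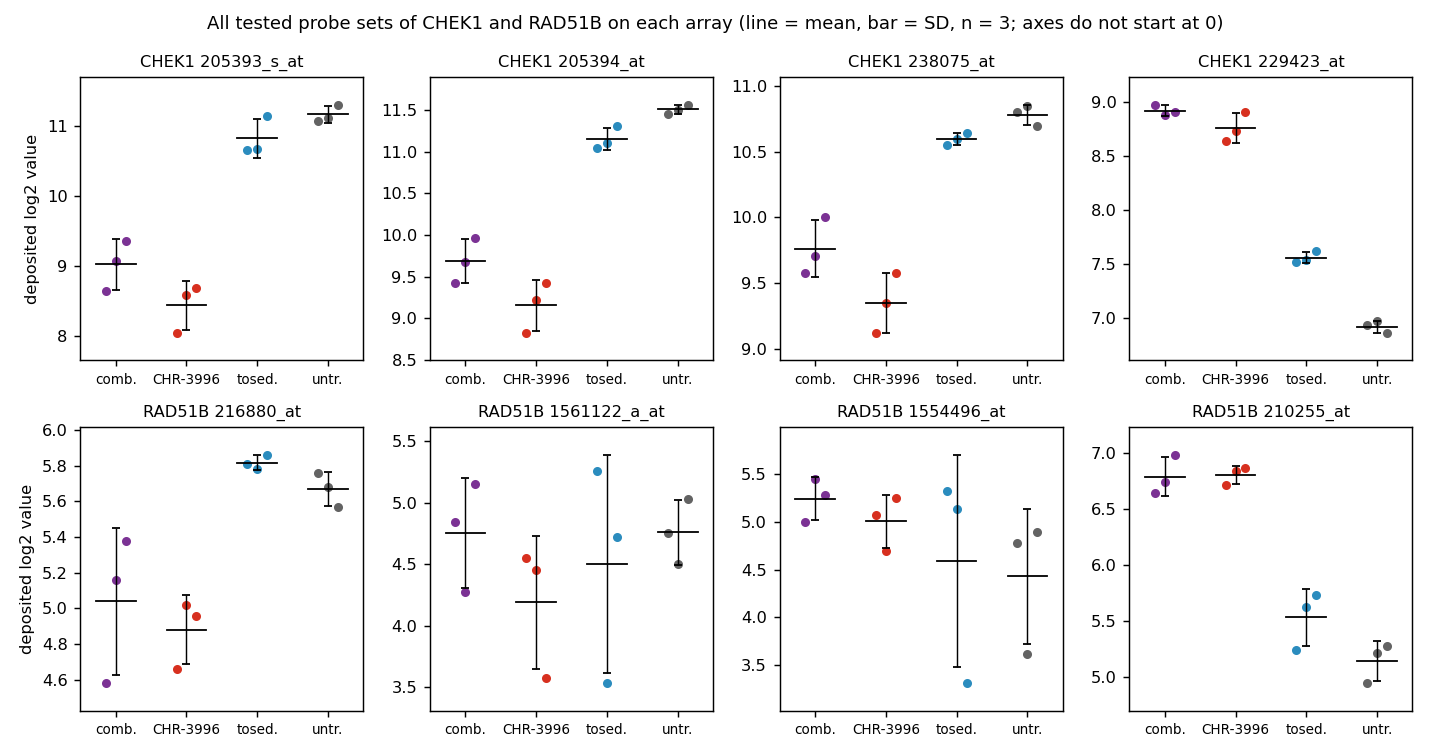
Deposited log2 value on each array (vertical axis, not starting at 0) for the 4 probe sets of CHEK1 (top) and of RAD51B (bottom), with the groups from left to right the combination, CHR-3996, tosedostat and untreated. Lines are means and bars are SDs of 3 arrays; CHEK1 229423_at and RAD51B 210255_at are higher with CHR-3996, by 1.84 and 1.66, while CHEK1 205394_at and RAD51B 216880_at are lower.

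Among the break sensors and checkpoint kinases, 3 of the 6 tested genes fell after CHR-3996 and with the combination, namely CHEK1, NBN and ATR. CHEK1, the kinase that ATR activates when replication forks stall, gave the largest fall of the 28 genes after CHR-3996. On its brightest probe set, 205394_at, the values were 9.42, 9.68 and 9.96 with the combination, 8.82, 9.22 and 9.42 after CHR-3996, 11.05, 11.11 and 11.31 after tosedostat, and 11.46, 11.51 and 11.57 in untreated cells. The arrays with CHR-3996 were far below the others and did not overlap them. CHEK1 changed by -1.83 with the combination (SE 0.18, adjusted p = 8.7e-06) and by -2.36 after CHR-3996 (SE 0.18, adjusted p = 1.6e-06). Probe set 205393_s_at fell with it, reading 8.64, 9.07 and 9.36 with the combination, 8.04, 8.58 and 8.68 after CHR-3996, 10.65, 10.66 and 11.14 after tosedostat, and 11.07, 11.11 and 11.30 in untreated cells. Probe set 238075_at also fell, reading 9.58, 9.71 and 10.00 with the combination, 9.12, 9.35 and 9.58 after CHR-3996, 10.55, 10.60 and 10.64 after tosedostat, and 10.80, 10.85 and 10.70 in untreated cells. Neither of these probe sets had an array with CHR-3996 as high as any untreated array.

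The fourth CHEK1 probe set, 229423_at, moved the other way. It read 8.98, 8.88 and 8.91 with the combination, 8.64, 8.73 and 8.91 after CHR-3996, 7.52, 7.54 and 7.62 after tosedostat, and 6.93, 6.97 and 6.86 in untreated cells. Each treatment lay above the untreated arrays without overlap, and tosedostat lay between the untreated arrays and those with CHR-3996. The changes were 2.01 with the combination (SE 0.10, adjusted p = 1.8e-07), 1.84 after CHR-3996 (SE 0.10, adjusted p = 3e-07) and 0.64 after tosedostat (SE 0.10, adjusted p = 0.0077). Among the 56 tested probe sets assigned to 1 of these genes alone, it was the only one called after tosedostat, where 3.68% of all probe sets were called. That share lay between 1.70% (without untreated replicate 3) and 3.97% (without CHR-3996 replicate 1) when 1 array was left out. After quantile normalization a BARD1 probe set, 242655_at, was also called lower after tosedostat (-0.48, adjusted p = 0.04). The CHEK1 tosedostat call held in all 19 other settings that were run, with a change between 0.52 and 0.67. Which transcript this probe set reads was not tested.

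NBN, a subunit of the MRN complex that detects broken ends, fell on all 4 of its tested probe sets. Its brightest read 10.95, 10.70 and 10.77 with the combination, 10.53, 10.93 and 10.85 after CHR-3996, 11.84, 11.69 and 11.70 after tosedostat, and 11.59, 11.50 and 11.42 in untreated cells. All arrays with CHR-3996 lay below all others, and the changes were -0.70 with the combination (adjusted p = 0.00093) and -0.73 after CHR-3996 (adjusted p = 0.00068). The other 3 probe sets fell further after CHR-3996, by 1.52, 1.78 and 1.95. ATR, the kinase that answers single-stranded DNA, fell by 0.45 with the combination and 0.51 after CHR-3996, and its second probe set fell by 0.51 with the combination and by 0.65 after CHR-3996. The 3 probe sets that ATRIP, the partner of ATR, shares with TREX1 had changes of -0.91 to -0.44 after CHR-3996 and were all called, but the signals of the 2 genes cannot be told apart on them.

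ATM, CHEK2 and RAD50 were not called lower on any probe set in the values as deposited. ATM, the kinase that answers double-strand breaks, was called on 1 of its 4 tested probe sets, 210858_x_at, which was higher by 0.41 with the combination and by 0.49 after CHR-3996. RAD50, the long-armed partner of NBN in MRN, was higher after CHR-3996 on 2 of its 3 probe sets, by 0.58 and 0.69, while its brightest had a change of -0.11 (adjusted p = 0.52). CHEK2, the kinase that acts below ATM, had changes of 0.13 with the combination and -0.21 after CHR-3996, with overlapping arrays. These small upward calls depended on the scaling of the arrays. Bringing all arrays to equal medians lowered the median change of all genes after CHR-3996 to -0.11, against 0.11 as deposited, and the ATM call was then lost while 1 of the 2 RAD50 calls, that of 238656_at, remained (0.47, adjusted p = 0.021). With quantile normalization neither gene kept a higher call after CHR-3996, and the brightest RAD50 probe set was called lower, with a change of -0.26 (adjusted p = 0.034). With the combination that RAD50 probe set was called lower under both scalings, with changes of -0.33 (quantile) and -0.35 (equal medians). Quantile normalization also gave lower calls with the combination on 2 ATM probe sets, 208442_s_at (-0.55, adjusted p = 0.011) and 1553387_at (-0.47, adjusted p = 0.035), which were not called with equal medians. With equal medians 27.5% of all genes were lower and 24.1% higher after CHR-3996, and with quantile normalization 27.7% and 27.1%.

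In the Fanconi core complex and its anchor, 3 of the 6 tested genes fell in both comparisons and 1 was higher. FANCM, the helicase that brings the core complex to DNA, changed most. Its brightest probe set read 7.08, 7.34 and 7.71 with the combination, 6.91, 7.08 and 7.12 after CHR-3996, 8.20, 8.28 and 8.13 after tosedostat, and 8.67, 8.55 and 8.30 in untreated cells. The arrays with CHR-3996 were all below the rest, with changes of -1.13 (combination, SE 0.16, adjusted p = 0.00017) and -1.48 (CHR-3996, SE 0.16, adjusted p = 2.4e-05). Of its other probe sets, 234733_s_at read 6.65, 7.19 and 7.36 with the combination, 6.53, 6.83 and 6.94 after CHR-3996, 7.78, 7.90 and 7.88 after tosedostat, and 8.21, 8.39 and 7.89 in untreated cells, again without overlap. The dimmest, 1554277_s_at, read 4.48, 4.97 and 4.63 with the combination, 3.60, 4.31 and 3.51 after CHR-3996, 4.89, 4.98 and 4.45 after tosedostat, and 4.97, 5.16 and 4.29 in untreated cells. It was called lower after CHR-3996 (adjusted p = 0.011), with all 3 CHR-3996 arrays below the 40th percentile of the array and 1 of them just above the lowest untreated array, and it was not called with the combination. The FANCM probe set 231971_at read 5.37, 5.49 and 6.07 with the combination, 6.23, 5.74 and 5.38 after CHR-3996, 5.21, 5.85 and 5.51 after tosedostat, and 5.67, 5.43 and 6.14 in untreated cells. All 4 groups overlapped on it and it was called in neither comparison.

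FANCG, a core complex subunit also called XRCC9, fell clearly. It read 9.88, 9.90 and 10.29 with the combination, 9.28, 9.42 and 9.92 after CHR-3996, 10.52, 10.70 and 10.69 after tosedostat, and 10.86, 10.96 and 10.90 in untreated cells. The treatments with CHR-3996 overlapped each other and not the untreated arrays, with changes of -0.89 (combination, adjusted p = 0.0014) and -1.37 (CHR-3996, adjusted p = 6.5e-05). FANCE, the subunit that connects the core complex to FANCD2, fell by 0.85 with the combination and by 1.01 after CHR-3996. FANCF, an adaptor of the same complex, was higher by 0.52 with the combination and by 0.42 after CHR-3996 on its brightest probe set. Its other probe set was uncalled, with changes of 0.13 with the combination and -0.11 after CHR-3996. The calls of FANCF were lost when the arrays were brought to equal medians or quantile normalized, and that after CHR-3996 also without CHR-3996 replicate 3 or untreated replicate 3. FANCC, another core subunit, was called in neither comparison, with changes of -0.09 with the combination and 0.00 after CHR-3996. FANCL, the ubiquitin ligase subunit, had changes of 0.09 with the combination and 0.20 after CHR-3996, and was called in neither.

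FANCI, the partner of FANCD2 that the core complex marks with ubiquitin, fell on all 3 probe sets. The brightest read 8.69, 9.37 and 9.51 with the combination, 8.32, 8.74 and 9.01 after CHR-3996, 10.15, 10.00 and 10.10 after tosedostat, and 10.62, 10.34 and 10.34 in untreated cells. No array with CHR-3996 reached any array without it, and the changes were -1.25 (combination, SE 0.22, adjusted p = 0.00084) and -1.74 (CHR-3996, SE 0.22, adjusted p = 7.6e-05). BLM, the helicase that takes apart recombination intermediates, read 7.35, 8.05 and 8.38 with the combination, 7.06, 7.76 and 7.74 after CHR-3996, 8.90, 8.89 and 9.09 after tosedostat, and 9.29, 9.32 and 9.28 in untreated cells. The 3 untreated arrays lay close together while those with CHR-3996 were spread more widely and lower, with changes of -1.37 (combination, SE 0.25, adjusted p = 0.00089) and -1.78 (CHR-3996, SE 0.25, adjusted p = 0.00014). MSH6, a mismatch sensor, read 10.77, 10.61 and 10.78 with the combination, 10.30, 10.37 and 10.37 after CHR-3996, 11.31, 11.33 and 11.33 after tosedostat, and 11.32, 11.34 and 11.19 in untreated cells. The combination lay above CHR-3996 alone and below the untreated arrays with no overlap, with changes against untreated cells of -0.57 (combination, adjusted p = 0.00055) and -0.94 (CHR-3996, adjusted p = 1.5e-05). Its dimmer probe set fell by 1.07 with the combination and by 1.45 after CHR-3996.

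**Figure D4:**
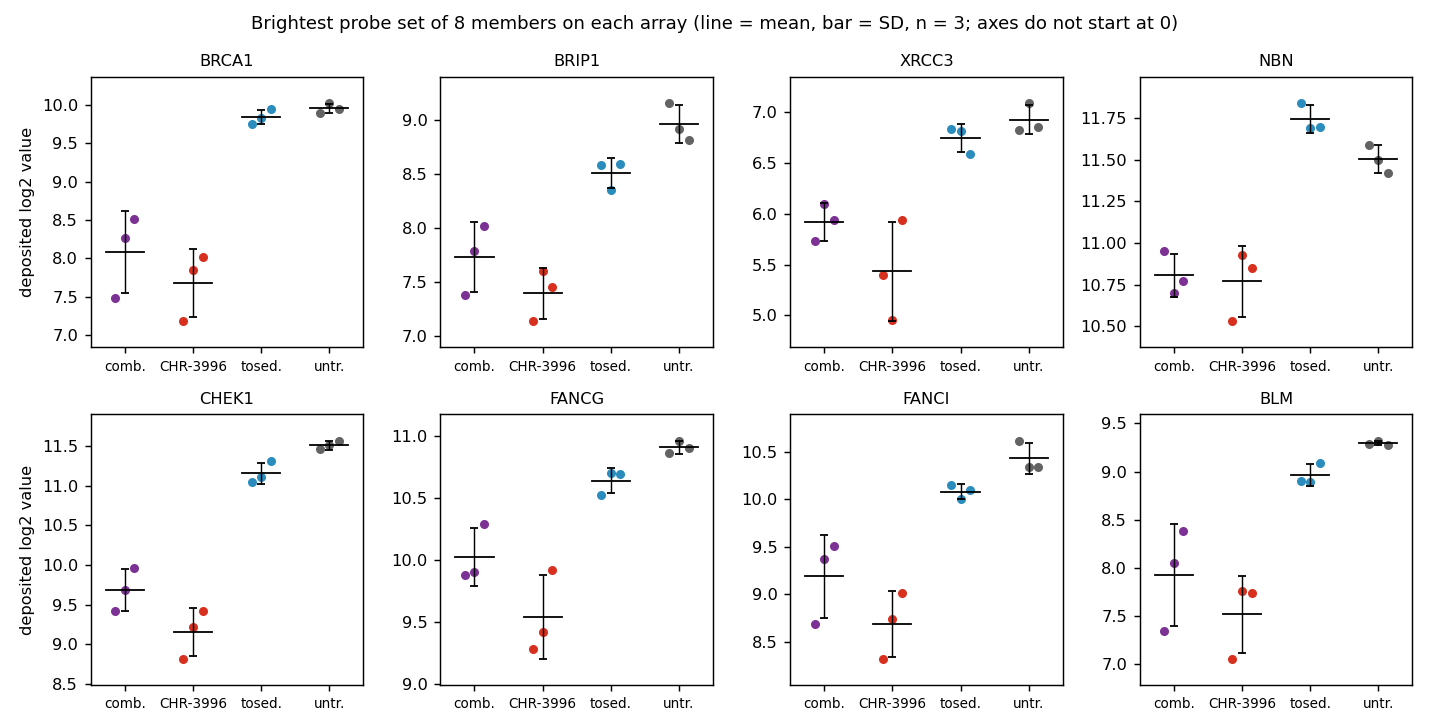
Deposited log2 value of the brightest probe set on each array (vertical axis, not starting at 0) for BRCA1, BRIP1, XRCC3, NBN, CHEK1, FANCG, FANCI and BLM, with the groups from left to right the combination, CHR-3996, tosedostat and untreated. Lines are means and bars are SDs of 3 arrays; in all 8 genes the arrays with CHR-3996 lie below those of tosedostat and untreated cells.

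Over all 56 tested probe sets of these genes, 33 were lower and 5 higher with the combination, and 36 were lower and 6 higher after CHR-3996. Of all probe sets 14.1% were lower and 32.0% higher with the combination, and 15.7% lower and 29.4% higher after CHR-3996. Of the 15 genes with several tested probe sets, 7 had all of them lower after CHR-3996, 3 had some lower and the rest uncalled, 3 had some higher and the rest uncalled (RAD50, ATM and FANCF), and 2 had both directions (CHEK1 and RAD51B). The remaining 13 genes rest on 1 probe set.

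The combination was next compared with each compound alone. Against tosedostat, 16 of the 28 genes were lower and 3 were higher (FANCF, FANCL and RAD51B), with a median difference of -0.61, while 15.8% of all genes were lower and 30.4% higher. RAD51AP1, which was not called here (-0.66, adjusted p = 0.054), was called with the replicate number as a block, which gave 17 genes lower. BARD1, RAD54B and RAD54L, which had been called lower after CHR-3996, were not called here in the values as deposited. Both other scalings called RAD51AP1, RAD54B and RAD54L lower, but not BARD1. Quantile normalization also called RAD50 lower and gave 20 genes lower, against 25.7% of all genes. Equal array medians gave 19 genes lower, against 26.7% of all genes. Leaving out 1 array removed the call of ATR (combination replicate 2, tosedostat replicate 1 or tosedostat replicate 2), of PALB2 (combination replicate 3, tosedostat replicate 1 or tosedostat replicate 3) or of FANCG (combination replicate 1). The combination arrays are the same as in the comparison with untreated cells. The higher calls of FANCF (0.35, adjusted p = 0.043) and FANCL (0.30, adjusted p = 0.042) were lost under both other scalings, with no filter on dim probe sets and in the compared groups alone. The FANCF call was also lost without combination replicate 1 or 2, CHR-3996 replicate 3, tosedostat replicate 2 or 3, or any 1 untreated array. The FANCL call was also lost without any 1 combination array, CHR-3996 replicate 3, tosedostat replicate 1 or 3, or untreated replicate 1 or 2.

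Against CHR-3996 alone, the combination gave no call among the 28 genes, and 0.0577% of all genes were called. At an unadjusted limma p under 0.05 there were 7 of the 28 genes, against 11.1% of all genes. The estimates ran from -0.20 for ATM to 0.82 for RAD54B, with a median of 0.23 against 0.07 for all genes. The median of the 28 genes was 0.10 without CHR-3996 replicate 1 and 0.14 without combination replicate 3. The 95% intervals, which are not adjusted for the number of genes, reached from -0.61 for FANCC to 1.31 for RAD54B. All 20 genes that fell after CHR-3996 had an estimate above 0, from 0.01 to 0.82, which is read as a description because both comparisons use the CHR-3996 arrays. PALB2, RAD54B and MSH6 were higher with the combination than after CHR-3996 on all arrays, by 0.23, 0.82 and 0.37, with adjusted p-values of 0.43, 0.25 and 0.24. The share of all genes that were higher on all arrays in this comparison is not given, so nothing is drawn from it. The interaction of the 2 compounds, the combination minus CHR-3996 less tosedostat minus untreated, gave no call either, against 0.276% of all genes. It had 9 of the 28 genes at an unadjusted limma p under 0.05, against 11.2% of all genes, and the smallest adjusted p was 0.22, for CHEK1 with an estimate of 0.89 (SE 0.25).

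**Figure D5:**
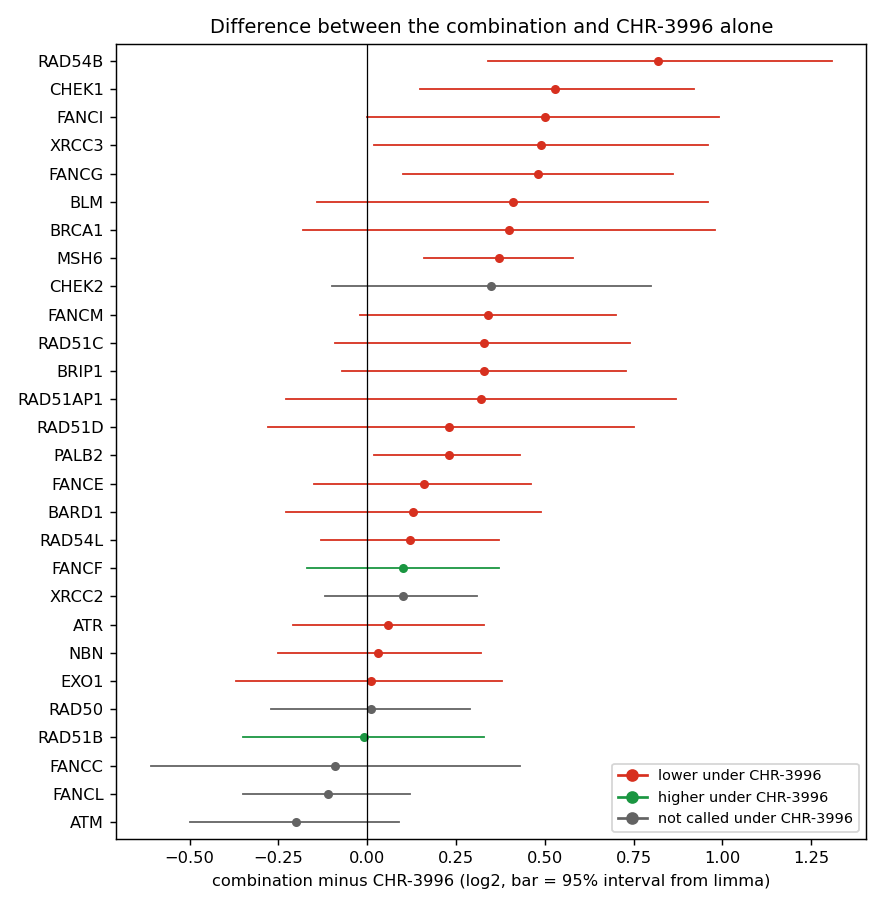
Difference of the combination from CHR-3996 alone on the log2 scale (horizontal axis) for each of the 28 genes, with 95% intervals from limma, coloured by the call after CHR-3996. Estimates range from -0.20 to 0.82 and none was called.

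The other genes of these pathways were read from 5 lists. Over all genes tested, 18.0% were lower and 31.7% higher after CHR-3996. After CHR-3996, 11 of 26 other homologous recombination genes were lower and 3 higher, with a median of -0.09. The largest changes were those of DNA2, a resection nuclease (-2.93), PSMC3IP (-2.31) and MND1 (-2.18), which form a pair that helps meiotic strand exchange. ABRAXAS1, a scaffold of the BRCA1-A complex, was higher by 1.52. Of 18 other Fanconi and crosslink repair genes, 8 were lower and 3 higher (median -0.06). CENPX, a partner of FANCM, fell by 2.47, RFWD3, a ubiquitin ligase, fell by 1.54, and ERCC1, a subunit of a crosslink nuclease, was higher by 1.40. FANCB of the core complex was called lower, but its CHR-3996 arrays, at 3.48 to 3.52, were below the 40th percentile of the array, so no size is given. Of 21 other checkpoint genes 10 were lower and 5 higher (median -0.57), led by the phosphatase CDC25A (-5.17), TIPIN (-2.22) and CLSPN (-2.05), both TIPIN and CLSPN being replication fork proteins that help ATR activate CHEK1. ETAA1, an activator of ATR, was higher by 1.39. Of 13 end joining genes 9 were lower and 2 higher (median -0.49), with PAXX at -2.61, POLQ at -1.36 and APLF at 1.88. MSH3, another mismatch sensor, fell by 1.13, alone among 3 other mismatch repair genes. With the combination, 9 of the other homologous recombination genes were lower and 6 higher, 7 of the Fanconi list were lower and 4 higher, and 10 of the checkpoint list were lower and 6 higher. In the end joining list 6 were lower and 4 higher, and in the mismatch repair list 1 was lower and 0 higher. Of all genes, 15.9% were lower and 34.6% higher with the combination. After tosedostat only APLF (1.45, adjusted p = 0.0059) and TP53BP1, a protein that favours end joining (0.54, adjusted p = 0.018), were called in these lists, both higher. Of all genes, 4.80% were called after tosedostat.

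Markers of cycling cells and some measures of array quality moved with these changes. All 10 S phase markers fell with the combination (median -1.60) and after CHR-3996 (median -2.01), and none was called after tosedostat. Their mean per array was 9.46 to 10.01 with the combination, 9.03 to 9.54 after CHR-3996, 11.39 to 11.54 after tosedostat and 11.61 to 11.68 in untreated cells. The mean of the 28 genes was 8.69 to 9.02 with the combination, 8.42 to 8.76 after CHR-3996, 9.27 to 9.33 after tosedostat and 9.40 to 9.42 in untreated cells, so both measures put the groups in the same order. Within the CHR-3996 group, replicate 1 was the lowest array for 18 of the 20 genes that fell and also for the S phase mean. Without this array 19 of the 28 genes were lower, and 42.1% of all probe sets were called in either direction. In the combination, replicate 1 was lowest for 14 of the 20 and for the S phase mean. Of 5 mitosis markers, 4 fell with the combination and 5 after CHR-3996. None of the 5 was called after tosedostat, but all 5 had a change below 0 (median -0.48). Their mean per array was 11.12 to 11.39 after tosedostat and 11.6 to 11.81 in untreated cells. In bulk RNA, fewer cells in S phase and less RNA per cell cannot be told apart, and the part of cell cycle position in these changes was not tested. The 9 plasma cell markers were above the array median on every array, as were FGFR3 and NSD2, the genes of the t(4;14) translocation of this line, and of the 9, 4 fell and 1 was higher with the combination and 5 fell after CHR-3996. Of the 10 markers of other blood and stromal cells, 7 were tested and CD3D, CD14 and COL1A2 were too dim to be. Their mean per array was 6.34 to 6.84 with the combination, 6.29 to 6.50 after CHR-3996, 5.73 to 5.99 after tosedostat and 5.71 to 6.07 in untreated cells. LYZ and HBB were higher with the combination and after CHR-3996, the other 5 were not called, and none of the 7 was listed at 0 on any array. Of these 7 markers, 5 were above the array median on all 3 arrays with the combination. The count was also 5 after CHR-3996 and in untreated cells, and 4 after tosedostat. The difference between the 3′ and 5′ probe sets of actin, a measure of RNA length, was 1.24 ± 0.15 with the combination, 1.59 ± 0.17 after CHR-3996, 2.09 ± 0.11 after tosedostat and 2.14 ± 0.17 in untreated cells (log2, SD, n = 3). The array median was 5.29 ± 0.02 with the combination, 5.26 ± 0.03 after CHR-3996, 5.05 ± 0.01 after tosedostat and 5.04 ± 0.04 in untreated cells, and the part of either measure in the changes was not tested. The same 3′ and 5′ difference of GAPDH was 0.35 ± 0.09 with the combination, 0.45 ± 0.06 after CHR-3996, 0.43 ± 0.08 after tosedostat and 0.44 ± 0.06 in untreated cells, with CHR-3996 and untreated arrays overlapping.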

How the data were processed

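RNA of H929 cells was amplified in 2 cycles and hybridised to 12 Affymetrix U133 Plus 2.0 arrays, 3 per group. The authors normalised and summarised the arrays in dChip and deposited log2 values per probe set; the dChip version, probe model and baseline array were not given in the sources used here. Between 1141 and 1344 values per array were listed at 0. The 62 control probe sets were removed. The 36395 that lay above the array's 40th percentile on at least 3 of 12 arrays were tested with limma 3.58.1 in R 4.3.3, with 1 term per group over all 12 arrays, Benjamini-Hochberg adjustment and a threshold of 0.05. Gene symbols were those of the platform annotation brought up to date with RefSeq, and 29161 tested probe sets had 1 symbol, 1365 several and 5869 none. Precision is limited by the number of arrays. Tables and plots were made in Python 3.11.15 (matplotlib 3.10.9).

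The genes and lists were chosen with earlier results of these data known. Array values are given for the 2 genes of each role with the largest change after CHR-3996, for genes called after tosedostat and for genes whose probe sets were discordant (called in opposite directions, or called and uncalled differing by over 1), and up to 3 genes per other list were named by size, to which the largest opposite change called was added after the values were seen. Nothing states what a replicate number marks. Deviations of same-numbered arrays correlated above 0.1 in every pair for tosedostat and untreated (0.13 to 0.29), combination and CHR-3996 (0.18 to 0.28), combination and tosedostat (0.19 to 0.23) and CHR-3996 and tosedostat (0.12 to 0.16), but not for CHR-3996 and untreated (0.04 to 0.12) or combination and untreated (0.098 to 0.17). Alternatives were 2 scalings, 2 filters, a replicate block, a variance trend, compared groups alone, mean probe sets, the methods' size criterion and leaving out each array.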

Additional observations from a re-analysis of the deposited data

How the results depend on the processing

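The count of genes lower after CHR-3996 (20 of 28) stayed between 19 and 20 when any 1 array was left out, that of the combination (18) between 16 and 19, and that of the combination against tosedostat (16) between 14 and 17. The share of all probe sets called in either direction was then 40.5% to 44.9% after CHR-3996. It was 40.9% to 47.2% with the combination and 36.6% to 43.2% for the combination against tosedostat. The counts of genes higher were 1 to 2 after CHR-3996 and 2 to 2 with the combination (2 each in the full data), and the counts of 0 for tosedostat, for the combination against CHR-3996 and for the interaction were 0 to 0. The study's methods also required a linear fold of at least 2 and a difference above 100. This size criterion, added to the limma call, left 11 genes lower after CHR-3996 and 7 with the combination. It left 2 lower for the combination against tosedostat, and 0 higher after CHR-3996 or with the combination. The share of all genes that met the criterion is not given here, so these counts have no background beside them. Quantile normalization and equal array medians each left 1 gene higher, RAD51B, after CHR-3996 and with the combination, and averaging the kept probe sets left 1 higher after CHR-3996, RAD50. With the replicate number as a block, 20 genes were lower and 2 higher after CHR-3996, 19 were lower (RAD54B added) and 2 higher with the combination, 17 were lower for the combination against tosedostat, and 0 were called in the other 3 comparisons. Of all probe sets, 48.7% were then called in either direction after CHR-3996, 49.8% with the combination and 46.2% for the combination against tosedostat.

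In the 12 genes with values on every array, the change after CHR-3996 kept its direction and its call in all 216 repeats on their brightest probe set. The filters, the replicate block, the variance trend and leaving out a combination or tosedostat array did not alter the change itself. In those repeats only the call could be lost, so they did not test the direction. The 216 repeats did not include the compared groups alone or the averaged probe sets. All of the 12 but RAD51C were chosen for a large change after CHR-3996, so the result does not extend to the other genes. Of 2220 repeats of called probe sets of the 28 genes over all comparisons, 2096 kept the call, 124 lost it and 0 changed direction. In the repeats that altered only the spread, the set tested or arrays of other groups, the direction could not change. The probe sets were chosen as called, and the share of all called probe sets that kept the call is not given. RAD51D lost its combination call with no filter and, like PALB2, in the compared groups alone, and BARD1 lost its CHR-3996 call in both. Averaging probe sets removed the calls of RAD51B and FANCF after CHR-3996 and of RAD51C with the combination. The cause of these losses was not tested.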
